A study of Homo sapiens with 2 samples.

Results

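The enzymes that build and take apart glucosylceramide-based glycosphingolipids were followed here through 7 genes, A4GALT, UGCG, B4GALT5, B4GALT6, ST3GAL5, GLA and GBA2. They were found by symbol among the 36601 genes of the deposited matrices, each symbol matching 1 gene ID. The set was chosen by the measured ratio of A4GALT between the libraries, which was among the highest of all genes, and its pathway neighbours were added to ask whether they share it. The values of A4GALT therefore describe the reason for its choice. The samples were 2 cultures of HT1080, an established human fibrosarcoma line labelled wild type, grown as spheroids of 2000 cells, about 50 of them pooled in 500 µl of collagen for 72 h of invasion. The control culture received no named antibody, and the 4B4 culture was kept in 2 µg/ml of 4B4, a blocking antibody against β1 integrin, which pairs with α subunits to form collagen and fibronectin receptors. Gels were dissolved with collagenase and cells then treated with trypsin, in both groups alike. There was 1 library per group, so no difference has a replicate check, no test was made, and treatment cannot be told apart from library or from the addition of an antibody as such.

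Glycosphingolipids are membrane lipids in which sugars are added one by one to ceramide in the Golgi. UGCG adds glucose, B4GALT5 and B4GALT6 add galactose to give lactosylceramide, and the pathway then branches: A4GALT makes the globo-series lipid Gb3, also known as CD77 and as the receptor of Shiga toxin, and ST3GAL5 makes GM3, the parent of most gangliosides. GLA, the lysosomal α-galactosidase A that is deficient in Fabry disease, removes the outer galactose of Gb3, and GBA2 splits glucosylceramide outside the lysosome.

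A4GALT was 2.74-fold higher in the 4B4 library than in the control library, relative to all transcripts. None of the other 6 genes was higher by 1.5-fold. UGCG, which makes the glucosylceramide from which Gb3 is built, differed the other way and was 1.91-fold lower. B4GALT6 was 1.51-fold lower, B4GALT5 and GLA were slightly lower, GBA2 was close to equal, and ST3GAL5 was too rare for a call.

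The promoters of A4GALT and UGCG are shown because these genes had the highest and the lowest ratio of the 7. RefSeq on GRCh38.p14 gave promoter windows, from 250 bases before to 50 bases after a gene's start, for 6 of the 7 genes, A4GALT, UGCG, B4GALT5, ST3GAL5, GLA and GBA2. Capitals mark GGGCGG on either strand, the GC box bound by Sp-family factors, and overlapping matches were all counted. The A4GALT window is chr22:42720821-42721120 on the minus strand and the UGCG window chr9:111896564-111896863 on the plus strand.
A4GALT: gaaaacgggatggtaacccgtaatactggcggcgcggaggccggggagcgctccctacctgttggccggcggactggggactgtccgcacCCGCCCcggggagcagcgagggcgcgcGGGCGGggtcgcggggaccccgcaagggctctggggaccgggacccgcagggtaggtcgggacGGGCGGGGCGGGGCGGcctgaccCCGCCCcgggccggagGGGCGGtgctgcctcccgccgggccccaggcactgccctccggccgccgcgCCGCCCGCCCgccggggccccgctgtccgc
UGCG: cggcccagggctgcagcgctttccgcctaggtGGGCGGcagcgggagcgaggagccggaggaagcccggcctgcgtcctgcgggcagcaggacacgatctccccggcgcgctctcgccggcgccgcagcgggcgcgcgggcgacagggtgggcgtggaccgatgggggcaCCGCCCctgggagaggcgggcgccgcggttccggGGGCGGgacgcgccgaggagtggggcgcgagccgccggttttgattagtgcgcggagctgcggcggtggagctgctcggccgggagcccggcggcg
The A4GALT window held 9 matches and 81% G and C, and the UGCG window 3 matches and 79%. Of all 35116 windows in the table, 45.0% held a match, 15.8% held at least 3 and 0.419% at least 9, and the median content of G and C was 58.7%. A second start of A4GALT had 1 match in its window. The windows of B4GALT5, GLA and GBA2 held 3, 2 and 2 matches, and those of the 5 starts of ST3GAL5 between 0 and 4. These counts describe letters and not binding.

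RNA was counted in single cells as unique molecular identifiers (UMIs), tags that count each captured molecule once. The filter asked for 1000 detected genes or more and for a mitochondrial share of no more than 20%. It kept 3402 of 3642 control barcodes and 1385 of 1759 4B4 barcodes, with 127218114 and 116451080 UMIs. The median depth of the kept cells was 32914 UMIs for control and 68556 UMIs for 4B4. The libraries shared 2 barcodes before this filter and 0 after it. The mesenchymal markers VIM, CDH2, FN1, AXL and CAV1 were all at 5 UMIs per 1000000 or more, with a sum of 2734 in control and 2691 with 4B4. Within that sum FN1 was 1.74-fold higher with 4B4, and CAV1, AXL, CDH2 and VIM were 2.32-fold, 1.85-fold, 1.44-fold and 1.31-fold lower. Summed epithelial markers reached 13.4 and 15.5 on this scale, leukocyte markers 28.5 and 40.8, endothelial markers 32.6 and 47.7 and fibroblast markers 5.25 and 6.12. Of these 20 markers of other cells, CLDN4, CD68 and PECAM1 passed 5 and were 1.23-fold, 1.45-fold and 1.51-fold higher with 4B4, and KRT5 was at 0 in both libraries. The part of such cells in the results was not tested.

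This scale, UMIs of a gene per 1000000 UMIs of all kept cells, is written UPM. Ratios are 4B4 over control, and the exact 95% intervals hold counting error alone. Genes reaching 5 UPM in 1 of the libraries were taken as measured. A call needed 1.5-fold or more in either direction and an interval that left out equality. Among all 11359 measured genes, 2.1% were called higher and 5.82% lower, and the median log2 ratio was -0.0089. Of the 6 genes other than A4GALT, 5 were measured, 0 were called higher and 2, UGCG and B4GALT6, were called lower. B4GALT6 reached the floor only in the control library, where it was higher, so its place among measured genes depended on that difference. The median log2 ratio over all 6 was -0.37, and the count is too small to set them apart from other genes. With a stricter bound of 2-fold and a floor of 20 UPM, 0.324% of 6781 genes were called higher and 1.68% lower. A4GALT, chosen for its ratio, was called there. Of the other 6 genes, 3 reached that floor and 0 were called.

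UGCG encodes ceramide glucosyltransferase, the first and committing step (ENSG00000148154, GRCh38 chromosome 9, 111896766 to 111935369, plus strand). It was at 91.5 UPM (89.9 to 93.2) in control and 47.8 UPM (46.6 to 49.1) with 4B4, from 11646 and 5570 UMIs. Its log2 ratio was -0.94 (-0.98 to -0.89), and 2.44% of measured genes had a lower one. UGCG was thus the member furthest below equality, and its intervals in the libraries lay far apart.

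Counted per cell and not scaled for depth, UGCG differed little. A control cell held on average 3.42 UMIs of UGCG and a 4B4 cell 4.02, a ratio of 1.17. The same count for A4GALT was 0.784 and 4.83, a ratio of 6.16, and for B4GALT5 it was 4.81 and 9.45, a ratio of 1.96. Whether 4B4 cells held more RNA or were sequenced more deeply cannot be told apart here, so the lower UGCG is a lower share of the cell's transcripts and not a lower count per cell.

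**Figure D1:**
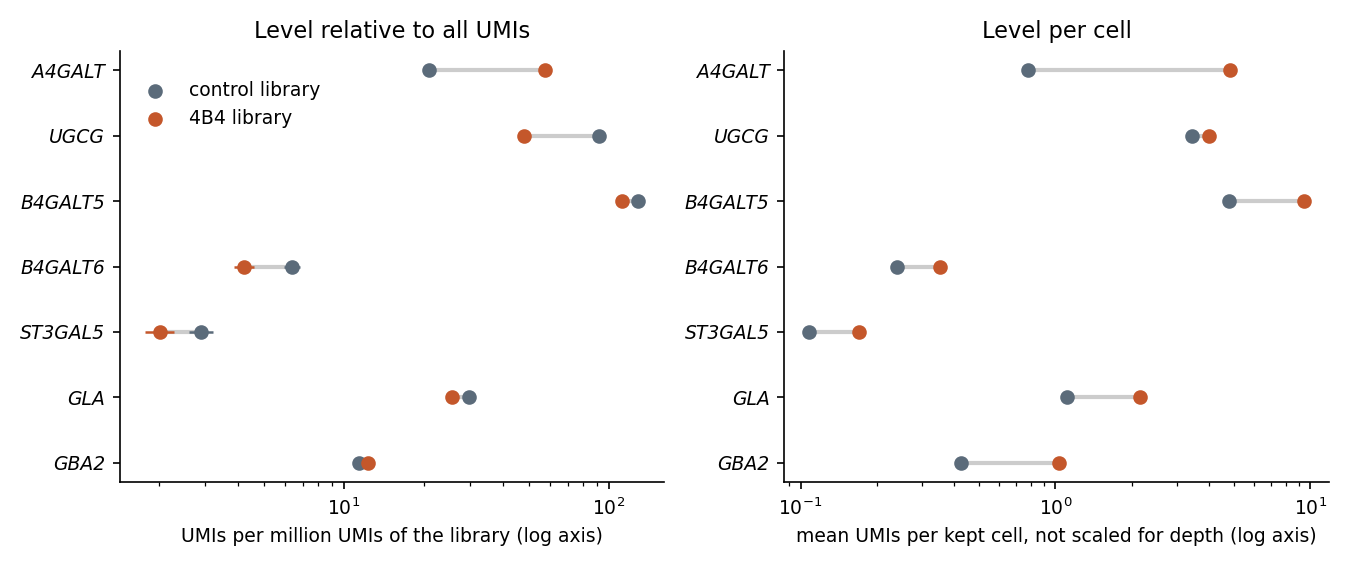
Levels of the 7 genes in the control library (grey) and the 4B4 library (orange), 1 library each, on log axes. Left, UMIs per 1000000 with exact 95% counting intervals, which are mostly narrower than the points. Right, mean UMIs per kept cell without scaling for depth. A4GALT goes from 21.0 to 57.4 UPM and UGCG from 91.5 to 47.8 UPM, while all 7 genes have more UMIs per 4B4 cell.

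The next step, lactosylceramide synthesis, is shared by a pair of related galactosyltransferases. B4GALT5 (ENSG00000158470, chromosome 20, 49632945 to 49713878, minus strand) was at 128.6 UPM (126.6 to 130.6) in control and 112.4 UPM (110.4 to 114.3) with 4B4. Its log2 ratio of -0.19 (-0.23 to -0.16) was short of a call, and 22.2% of measured genes had a lower ratio. This value depended on which cells were counted. It was -0.024 (-0.066 to 0.018) with a stricter cell filter and -0.58 (-0.65 to -0.52) over G1 cells of 20000 to 60000 UMIs. With phases weighing the same it was -0.030, given without an interval because S and G2M hold few 4B4 cells. B4GALT6 (ENSG00000118276, chromosome 18, 31622247 to 31685836, minus strand) had few UMIs, 810 and 490, which gave 6.37 UPM (5.94 to 6.82) and 4.21 UPM (3.84 to 4.6).

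The log2 ratio of B4GALT6, -0.60 (-0.76 to -0.43), passed the bound of 1.5-fold narrowly, and it did so under only 2 of 12 other settings. Within the control library there were 4.95 UMIs of B4GALT6 per 100 of B4GALT5 (4.61 to 5.31), and within the 4B4 library 3.74 (3.41 to 4.10). Over all cells B4GALT6 was thus lower relative to its partner enzyme too. Within G1 cells it was not, with a log2 ratio of -0.35 (-0.57 to -0.14) against -0.46 (-0.49 to -0.42) for B4GALT5. In S cells B4GALT6 had -0.065 (-0.49 to 0.35) and B4GALT5 0.38 (0.26 to 0.50). In G2M cells they had -0.44 (-0.86 to -0.031) and 0.15 (0.031 to 0.26). By these values B4GALT6 was lower relative to B4GALT5 in S and G2M, from 66 and 62 UMIs of B4GALT6 in the 4B4 library. The libraries differ in their share of G1 cells, as given below.

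At the branch point, A4GALT encodes α1,4-galactosyltransferase, the Gb3 synthase (ENSG00000128274, chromosome 22, 42692112 to 42721298, minus strand, with no other annotated gene overlapping it). It was at 21.0 UPM (20.2 to 21.8) in control and 57.4 UPM (56.1 to 58.8) with 4B4, from 2667 and 6687 UMIs. Its log2 ratio of 1.45 (1.39 to 1.52) ranked 10 from the highest among the 11359 measured genes. This rank is what the gene was chosen for.

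ST3GAL5, the GM3 synthase that uses the same substrate as A4GALT, was rare (ENSG00000115525, chromosome 2, 85837120 to 85905199, minus strand). It was at 2.88 UPM (2.60 to 3.20) in control and 2.02 UPM (1.77 to 2.29) with 4B4, below the floor in both. Of its 367 control UMIs, 24 came from 1 cell, and the 1% of cells richest in it held 26.4% of them. Its log2 ratio was -0.52 (-0.76 to -0.28), with values from -1.01 to -0.15 under other settings, and in S cells it was 0.63 (-0.19 to 1.43), so the size of the difference is poorly fixed.

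Ratios between genes inside a library do not depend on how the libraries are scaled. There were 22.9 UMIs of A4GALT per 100 of UGCG in the control library (21.9 to 23.9) and 120.1 in the 4B4 library (115.8 to 124.4). Set against B4GALT5, A4GALT had 16.3 (15.6 to 17.0) and 51.1 (49.6 to 52.6) UMIs per 100. Set against ST3GAL5, it had 727 (651 to 813) and 2846 (2498 to 3255). Against each of the 6 other genes A4GALT had the higher relative count in the 4B4 library, by 2.54-fold for GBA2 up to 5.24-fold for UGCG. That direction follows from the choice of A4GALT by its ratio, since 99.9% of measured genes had a lower ratio. It is therefore no separate support.

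The breakdown enzymes differed little. GLA (ENSG00000102393, chromosome X, 101397803 to 101408012, minus strand) was at 29.7 UPM (28.8 to 30.7) in control and 25.5 UPM (24.6 to 26.4) with 4B4, a log2 ratio of -0.22 (-0.29 to -0.15). GBA2 (ENSG00000070610, chromosome 9, 35736866 to 35749228, minus strand) was at 11.4 UPM (10.8 to 12.0) and 12.3 UPM (11.7 to 12.98), a log2 ratio of 0.11 (0.0034 to 0.22). The sign of the GBA2 ratio turned under 2 of 12 other settings, to -0.25 over cells of 20000 to 60000 UMIs and -0.32 over G1 cells of that depth. Positions are those of GENCODE release 29. The counts are per gene and carry no exon, intron or UTR. GLA and GBA2 overlap RPL36A-HNRNPH2 and CREB3 on the opposite strand, and B4GALT6 and ST3GAL5 overlap noncoding genes there. The UGCG interval also holds the microRNA gene MIR4668.

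The difference in A4GALT was spread over many cells. After each cell was thinned to 17000 UMIs, 26.8% of 3099 control cells held A4GALT (25.2% to 28.3%), against 53.1% of 1311 4B4 cells (50.3% to 55.8%). Without thinning the shares were 44.5% and 82.0%. Cells with 2 to 3 thinned UMIs made up 4.90% of control cells and 18.3% of 4B4 cells, and cells with 4 to 7 made up 0.387% and 4.35%. The 1% of cells richest in A4GALT held 9.49% of its UMIs in control and 6.13% with 4B4, and without these cells the log2 ratio was 1.51. Free RNA in the droplets adds a background to such shares, and with 1 cell line there was no cell type lacking A4GALT in which to read it.

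UGCG showed the reverse shift, again across the cells. At equal depth 67.3% of control cells (65.7% to 69.0%) had a UMI of it, against 50.2% with 4B4 (47.4% to 52.9%), and the unthinned shares were 82.3% and 84.6%. Control cells with 4 to 7 thinned UMIs made up 10.3% and 4B4 cells 3.20%. For B4GALT5 the equal-depth shares were 73.8% (72.2% to 75.4%) and 70.1% (67.5% to 72.6%), for GLA 36.5% (34.8% to 38.2%) and 32.5% (29.96% to 35.1%), and for GBA2 17.8% (16.5% to 19.2%) and 18.7% (16.6% to 20.9%). B4GALT6 was found in 10.0% (9.0% to 11.1%) and 7.78% (6.39% to 9.37%) of cells and ST3GAL5 in 4.07% (3.4% to 4.82%) and 2.21% (1.49% to 3.16%). The intervals of the libraries were apart for A4GALT, UGCG and ST3GAL5 and overlapped for B4GALT5, B4GALT6, GLA and GBA2. How often such intervals are apart among all genes was not computed, so this does not distinguish these genes from others. The intervals treat the cells of 1 library as independent draws, and the 4B4 share of ST3GAL5 rests on 29 cells.

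**Figure D2:**
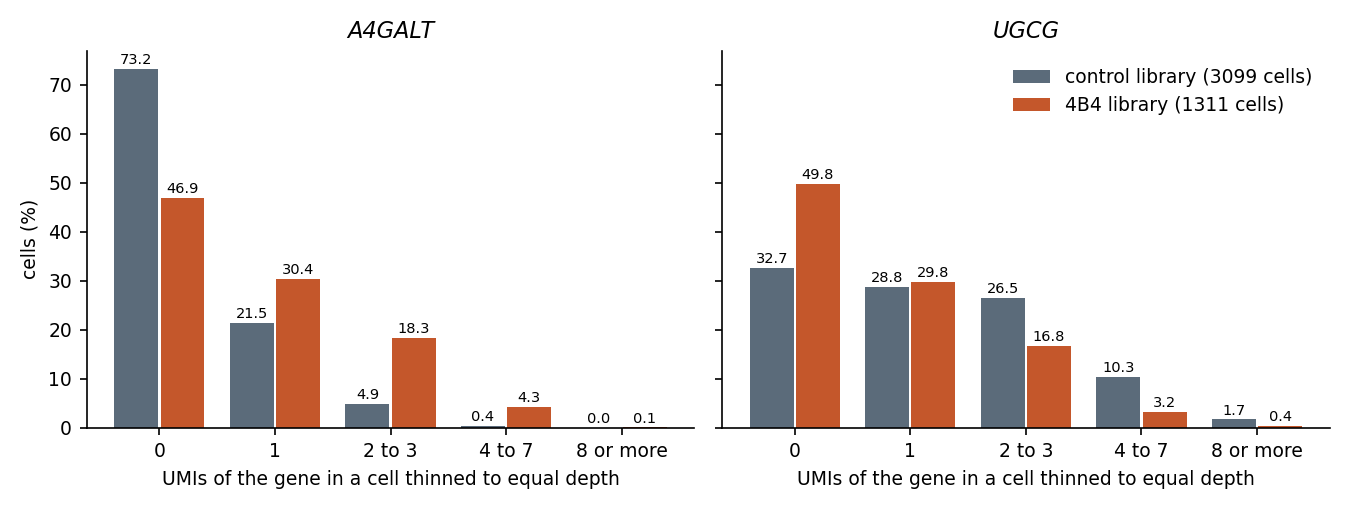
Share of cells by the number of UMIs of A4GALT (left) and UGCG (right) after every cell was thinned to 17000 UMIs, for 3099 control cells (grey) and 1311 4B4 cells (orange), 1 library each. Cells without A4GALT make up 73.2% of control and 46.9% of 4B4 cells, and cells without UGCG 32.7% and 49.8%.

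Subsets of cells were compared because the libraries differ in cell cycle, depth and nuclear RNA. Phase calls put 66.8% of control cells and 87.1% of 4B4 cells in G1. The log2 ratio of A4GALT was 1.39 (1.31 to 1.47) over G1 cells, 1.28 (1.03 to 1.53) over S cells and 1.32 (1.14 to 1.5) over G2M cells, so it was present at much the same size in each phase. UGCG had -0.91 (-0.96 to -0.85) in G1, -0.52 (-0.67 to -0.37) in S and -0.93 (-1.07 to -0.79) in G2M. The S and G2M values rest on 85 and 84 cells of the 4B4 library.

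B4GALT5 went different ways by phase. In G1 it was at 157.0 UPM in control and 114.4 with 4B4, a log2 ratio of -0.46 (-0.49 to -0.42). In S it was at 91.2 and 118.6 UPM, a log2 ratio of 0.38 (0.26 to 0.50), and in G2M at 78.4 and 86.9 UPM, a log2 ratio of 0.15 (0.031 to 0.26). The intervals of G1 and the other phases do not overlap, but they treat each UMI as independent. Over all thinned cells the variance of B4GALT5 was 2.93 times its mean in control and 3.42 times with 4B4. These intervals are therefore too narrow, and no test over cultures of this difference was possible. MALAT1, a nuclear long noncoding RNA, moved the same ways, from 15162 UPM in control to 12853 with 4B4 in G1, from 8324 to 10624 in S and from 6425 to 9007 in G2M. Its part in the B4GALT5 values was not tested.

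By depth, A4GALT in control cells was level, at 20.9 UPM under 20000 UMIs, 20.8 UPM at 20000 to 60000 and 21.5 UPM above. In 4B4 cells it was 33.9 UPM (21.5 to 50.9), 50.9 UPM (48.0 to 54.0) and 59.1 UPM (57.6 to 60.7). The log2 ratio was 0.70 (0.0034 to 1.33) in the shallowest cells, where 4B4 had 23 UMIs of A4GALT in 84 cells, and 1.29 (1.18 to 1.40) and 1.46 (1.34 to 1.57) in the deeper ones. Those 84 cells had a median of 6864 UMIs and 50561 UPM of MALAT1, against 16484 UMIs and 14584 UPM in the 533 control cells of this bin. The ratios of this bin are on a shifted scale. Over measured genes with UMIs in both libraries the median log2 ratio was 0.36 there, and 0.0026 and -0.018 in the deeper bins. UGCG had -0.75 (-1.26 to -0.27), -0.83 (-0.92 to -0.74) and -0.88 (-0.94 to -0.81) in the same bins.

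Cells were also ranked inside each library by their share of MALAT1 and divided into low, middle and high groups of near-equal size. A4GALT was 2.90-fold, 2.87-fold and 2.37-fold higher in these groups. Its level with 4B4 was 66.4, 55.2 and 49.5 UPM from low to high, and in control 22.8, 19.2 and 20.9 UPM. UGCG had -1.08 (-1.17 to -0.99), -1.05 (-1.12 to -0.98) and -0.67 (-0.75 to -0.59), and B4GALT6 -1.14 (-1.54 to -0.74), -0.70 (-0.94 to -0.46) and -0.19 (-0.48 to 0.097). The median log2 ratio of measured genes also moved, from -0.12 in the low group to -0.077 in the middle and 0.11 in the high group. In the low group MALAT1 itself was at 1301 UPM in control and 396 UPM with 4B4. B4GALT5 followed MALAT1 inside both libraries, with 78.7, 110.7 and 206 UPM from the low to the high group in control and 74.2, 113.8 and 158.7 UPM with 4B4. Cells with 10% to 20% mitochondrial UMIs had 178 UPM of B4GALT5 in the control library, against 102 UPM in cells with at most 10%, and 172 against 100.5 UPM in the 4B4 library. The log2 ratio of A4GALT was 1.46 and 1.51 at the lower and the higher mitochondrial share. The part of nuclear RNA or RNA quality in the B4GALT5 and UGCG values was not tested.

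**Figure D3:**
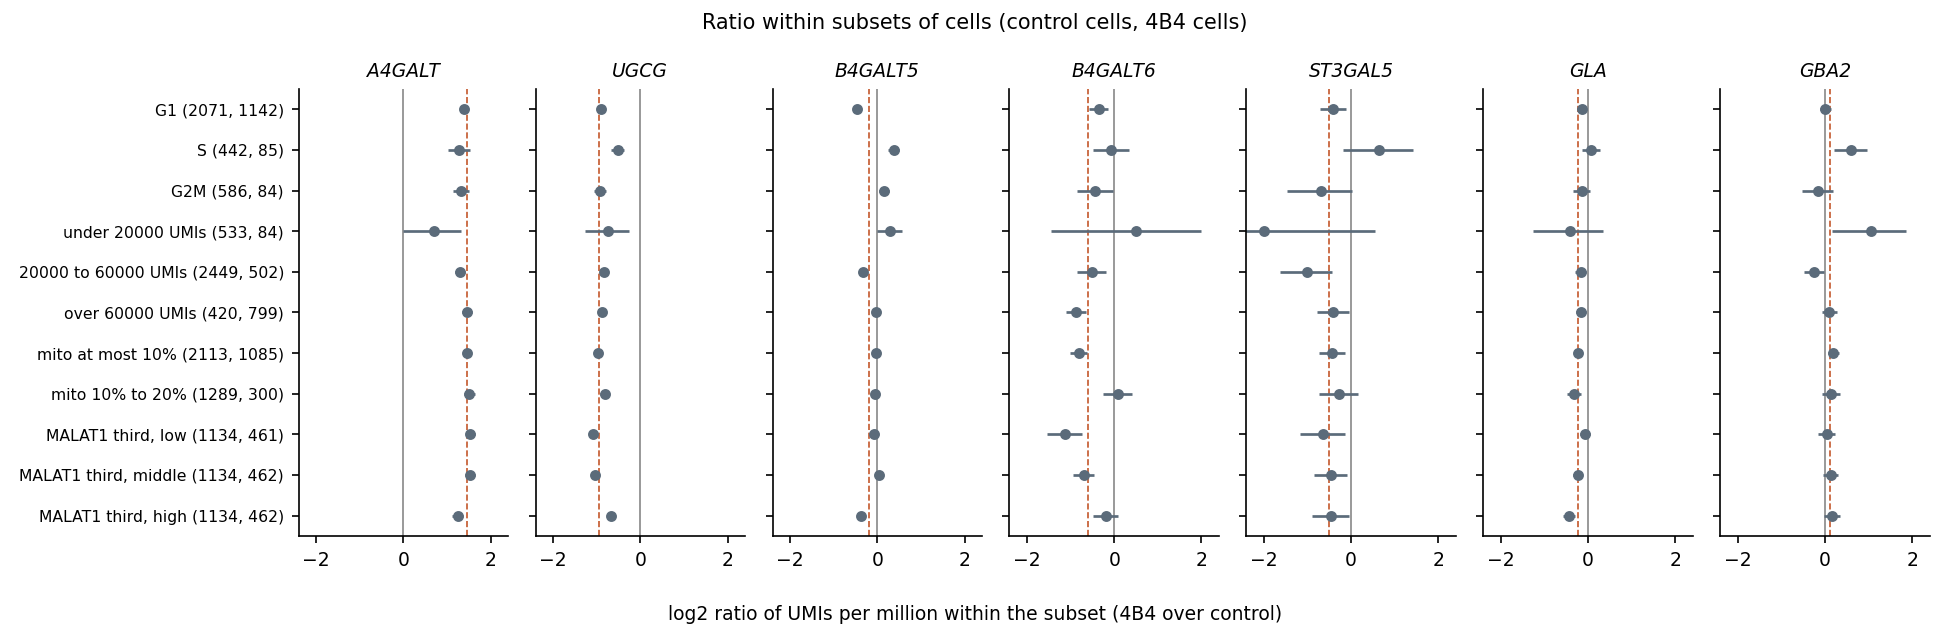
Log2 ratio (4B4 over control) of each of the 7 genes within subsets of cells by phase, depth in UMIs, mitochondrial share and MALAT1 group (equal parts of each library), with exact 95% counting intervals as bars and the numbers of control and 4B4 cells in parentheses. The dashed line is the ratio over all kept cells and the solid line is 0. A4GALT lies between 0.70 and 1.54 in all subsets and UGCG between -1.08 and -0.52, while B4GALT5 lies on both sides of 0. The bar of ST3GAL5 under 20000 UMIs runs past the axis, from -7.32. In that subset the median log2 ratio over measured genes with UMIs in both libraries was 0.36.

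Within a library the 7 genes were nearly unrelated across cells. Over thinned cells the 21 Spearman correlations between pairs of them ran from -0.049 to 0.044 in the 3099 control cells and from -0.083 to 0.093 in the 1311 4B4 cells, all weak in counts this sparse. Among control cells, 65.4% of those with A4GALT (62.0% to 68.6%) also had UGCG, as did 68.1% of those without (66.1% to 69.98%). In the 4B4 library these shares were 51.0% (47.2% to 54.8%) and 49.3% (45.2% to 53.3%). These intervals overlapped in both libraries. ST3GAL5 was found in 3.30% of 4B4 cells with A4GALT (2.11% to 4.92%) and 0.976% of those without (0.359% to 2.11%), and in control in 4.46% (3.16% to 6.10%) and 3.92% (3.16% to 4.80%).

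The genes most like A4GALT across cells were sought among 6583 other genes of at least 20 UPM, by the lower of the correlations in the separate libraries. ID3 had rank 1, with 0.166 in control and 0.295 in 4B4 cells, and ID1 had rank 4, with 0.108 and 0.274. Both encode inhibitors of basic helix-loop-helix transcription factors. SLC16A3, a lactate transporter (0.111 and 0.162), SPARC, a matrix protein (0.110 and 0.165), and YPEL3 (0.105 and 0.157) had ranks 2, 3 and 5. These cells share a library and a depth, the correlations are weak, and they describe the cells only. Between the libraries ID3 and ID1 had log2 ratios of 0.46 and 0.33. Of the 3 pathway members at this level, GLA ranked 3849, UGCG 5158 and B4GALT5 6330 by likeness to A4GALT.

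The wider pathway was followed through 9 lists of 84 further genes, of which 62 were measured. There 2 genes were called higher, 3.23% of those measured against 2.1% of all genes, and 1 was called lower, 1.61% against 5.82%. Log2 ratios ran from -0.59 to 1.76 with a median of 0.075, and 41 of the 62 were above 0, beside 48.1% of all measured genes. List medians ran from -0.053 to 0.36, so the lists did not go 1 way. Neither the higher A4GALT nor the lower UGCG had a counterpart of its size in ceramide supply, lipid transfer or sugar donors.

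Ceramide supply was close to equal: of 17 genes listed, 11 were measured and 0 were called, with log2 ratios from -0.22 to 0.22. CERS6, a ceramide synthase, had -0.22 and CERS2, which prefers very long acyl chains, 0.20. SPTLC2, a subunit of serine palmitoyltransferase, had -0.17 and ORMDL3, an inhibitor of that enzyme, 0.22. All 9 genes of lipid transfer and Golgi factors were measured and 0 were called, with a median of 0.044. LAPTM4A and TM9SF2, Golgi or endosomal membrane proteins needed for Gb3 synthesis, had 0.13 and 0.11. LAPTM4A was at 158 UPM in control and 173 UPM with 4B4. TMEM165, a Golgi ion transporter, had -0.13 and UNC50 0.22.

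Sphingomyelin synthesis is the other main use of ceramide. SGMS2, a sphingomyelin synthase, was called lower, at 10.6 UPM (10.1 to 11.2) in control and 7.07 UPM (6.59 to 7.57) with 4B4, a log2 ratio of -0.59. It passed 1.5-fold under 5 of 12 other settings and had -0.32 over G1 cells. Its relative SGMS1 had 0.19, and the sphingomyelinases SMPD1 and SMPD4 had 0.23 and -0.36.

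Beyond GM3, all 5 measured ganglioside genes of 10 listed had ratios above 0, as did 48.1% of all measured genes. The median of these 5 was 0.36. ST6GALNAC6, a sialyltransferase, was called higher, at 18.8 UPM (18.03 to 19.5) in control and 28.8 UPM (27.8 to 29.7) with 4B4, a log2 ratio of 0.62. It passed 1.5-fold under 7 of 12 other settings and had 0.39 over cells of 20000 to 60000 UMIs. ST6GALNAC4 had 0.50, ST3GAL2 0.36 and ST3GAL1 0.25. At a bound of 25%, 3 of these 5 were higher, against 8.94% of all genes, and 0 were lower, against 13.3%. Most of these sialyltransferases also act on glycoproteins.

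Genes of globo-series synthesis after Gb3 had few UMIs. B3GALNT1, which turns Gb3 into the next globoside, had 4 UMIs in control and 2 with 4B4, and GBGT1 had 2 and 1, genes singled out after their values were seen. B3GALT5 was at 0.817 and 0.335 UPM. None of the 3 was measured at 5 UPM, so of the globo-series genes listed A4GALT alone reached that level. UGT8 and GAL3ST1, which make galactosylceramide and its sulfate, were below the floor too. Of 8 measured genes of the lacto and neolacto series 0 were called, with a median of -0.053. Among them ST3GAL6 had 0.32, ST3GAL3 -0.25, B4GALT1 0.23 and B3GNT5, which starts this series, -0.21.

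NEU4, a sialidase that removes sialic acid from gangliosides and glycoproteins, had a higher ratio than A4GALT. It was at 2.11 UPM (1.87 to 2.38) in control and 7.15 UPM (6.68 to 7.66) with 4B4, a log2 ratio of 1.76 (1.56 to 1.96). Its 269 control UMIs were unevenly spread, with 35.7% in the 1% of cells richest in it, and without such cells in each library the log2 ratio was 2.16. Its share of cells at equal depth was 3.19% in control (2.60% to 3.88%) against 9.46% with 4B4 (7.93% to 11.2%). Its low level keeps it near the floor of 5 UPM, which it reached only in the 4B4 library, where it was higher.

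Of the 13 breakdown genes measured, NEU4 included, 11 had ratios above 0, as did 48.1% of all measured genes. Their median was 0.20, and NEU4 alone was called at 1.5-fold. PSAP, the precursor of the saposins that present lipids to lysosomal hydrolases, was at 161 UPM (159 to 163) in control and 223 UPM (220 to 226) with 4B4, a log2 ratio of 0.47. ARSA, which desulfates sulfatide, had 0.44 and GLB1, the lysosomal β-galactosidase, 0.27. GLA, with -0.22, lay below all 13 of them. Sugar donor genes were all measured, 10 of 10, with 0 called and ratios from -0.23 to 0.27. SLC35A2, the Golgi importer of UDP-galactose that both A4GALT and B4GALT5 need, had 0.27. NANS and NANP, of sialic acid synthesis, had -0.17 and -0.23.

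**Figure D4:**
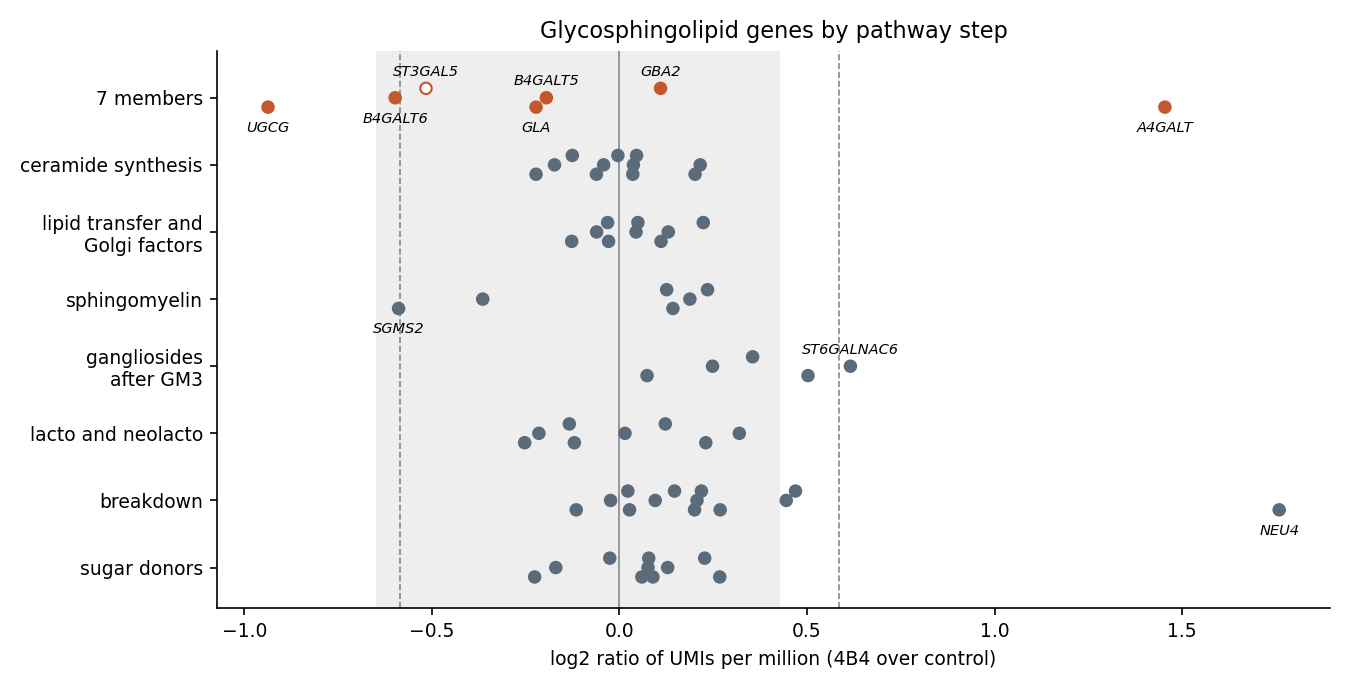
Log2 ratio of UPM (4B4 over control, 1 library each) for the 7 genes (orange; the open point, ST3GAL5, is below 5 UPM) and for measured genes of 7 lists (grey), with genes called by the 1.5-fold rule named. Dashed lines mark 1.5-fold and the shaded band holds the central 90% of all 11359 measured genes, from -0.65 to 0.43. A4GALT at 1.45 and NEU4 at 1.76 stand far to the right, UGCG at -0.94 to the left, and most pathway genes lie inside the band.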

How the data were processed

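HT1080 spheroids in collagen, without or with 4B4, gave 1 single-cell library each, made with 10x Genomics 3′ chemistry version 3 per the labels' protocols. The values are raw UMI counts for each gene and barcode, deposited by the authors; Cell Ranger 7.1.0 is named in the file headers. GRCh38 and Seurat 5.0.1 are named in the submitters' processing notes with no role. The gene annotation and whether intronic reads counted were not given in the sources, and no deposited annotation of cells was used.

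Cells were filtered by detected genes and mitochondrial share, and counts were summed and divided by the library total. Sums have exact Poisson intervals, and ratios and shares Clopper-Pearson intervals (scipy 1.17.1); they cover counting error only and say nothing about variation between cultures. With 1 library per group no p-value was computed. The ratio rule was tested on simulated Poisson counts around the pooled means. These hold no variation between cells or cultures, so they cannot show how the rule fares with such variation. Thinning drew 17000 UMIs per cell without replacement, set as the highest step of 1000 UMIs still reached by 90% of each library's cells; 303 control and 74 4B4 cells were too shallow. Phases came from 43 S and 54 G2M genes in scanpy 1.11.5; they are ranges of a score, not cell types, and free RNA can enter them. No doublet caller was run. Gene IDs were joined to GENCODE release 29, of which 94.6% matched; B4GALT6, ST3GAL5, GLA and GBA2 overlap genes on the other strand.

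The 7 genes and all lists were chosen with earlier results of these data known. All 7 are named, with the 4 measured genes furthest from equality in each list, and the 5 genes most correlated with A4GALT; B3GALNT1, GBGT1, B3GALT5, UGT8 and GAL3ST1, below the floor, were added after their values were seen. Of the listed genes, 1 was not among the gene symbols of the files. The value of 1 gene named by this rule is not reported here. Alternatives were other cell filters, TMM from edgeR 4.0.16 and median-of-ratios scaling, totals without mitochondrial genes, equal weight per cell or phase, subsets by depth and phase, leaving out the richest cells, and other floors and bounds.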

Additional observations from a re-analysis of the deposited data

How the results depend on the processing

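A4GALT stayed at least 1.5-fold higher and UGCG at least 1.5-fold lower under all 12 other settings run, from 1.22 to 1.51 and from -0.97 to -0.77 on the log2 scale. A4GALT moved beyond its counting interval to 1.39 over G1 cells, 1.34 with phases weighing the same, 1.29 over cells of 20000 to 60000 UMIs and 1.22 over G1 cells of that depth, a setting added after the data were seen. Its share of cells with a UMI was higher in the 4B4 library by 26.3 percentage points at 17000 UMIs, by 20.6 at 10000 UMIs and by 37.5 without thinning. Of the other 6 genes 0 were called higher under any setting. The count called lower was 2, and became 1 (UGCG) with no cell filter, TMM or median-of-ratios scaling, thinned cells, equal weight per cell or phase, G1 cells, cells of 20000 to 60000 UMIs or both together, or a floor of 20 UPM, and 0 at a bound of 2-fold. Of pathway genes called higher, 2 became 1 over G1 cells, cells of 20000 to 60000 UMIs or both together, with equal weight per cell, totals without mitochondrial genes, a floor of 20 UPM or a bound of 2-fold. At a bound of 25% they became 6 of 62, beside 8.94% of all measured genes. The 1 called lower became 0 over G1 cells, with no cell filter, TMM or median-of-ratios scaling, equal weight per cell or phase, a floor of 20 UPM or a bound of 2-fold. It became 2 with no floor, and 2 of 62 at 25%, beside 13.3% of all measured genes. The cause was not tested, except that bounds and floors change the counts by construction. Over these 12 settings GBA2 alone of the 7 turned sign. Within single phases or depth bins, B4GALT5, B4GALT6, ST3GAL5 and GLA also had ratios above 0, all but B4GALT5 with intervals that included 0. ST3GAL5 and B4GALT6 are limited by depth, with under 1000 UMIs in each library. No paired analysis was possible because each group has 1 library.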

Other observations

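Barcodes left out by the cell filter, 240 of the control library and 374 of the 4B4 library with medians of 2572 and 4406 UMIs, held A4GALT at 5.18 UPM (1.90 to 11.3, from 6 UMIs) and 22.1 UPM (17.2 to 28.0, from 69 UMIs). B4GALT5 was at 139 UPM (118 to 162) and 203 UPM (188 to 220) in these barcodes, and UGCG at 44.0 UPM (32.8 to 57.9) and 33.7 UPM (27.6 to 40.8). MALAT1 was at 16712 UPM in the control barcodes left out and 43542 UPM in those of the 4B4 library. Over measured genes with UMIs in both sets of barcodes the median log2 ratio was 0.33.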
